A study of Mus musculus with 12 samples.

Results

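The respiratory chain subunits that are encoded in the nucleus were followed in astrocytes of mice whose cortical glutamatergic neurons lack NMNAT2. The genes were chosen by symbol alone, as the rows of the deposited table whose symbols begin like those of complex I (Nduf followed by a, b, c, s or v and a number), complex II (Sdha to Sdhd), complex III (Uqcr, Cyc1), complex IV (Cox4 to Cox8) and complex V (Atp5), with pseudogenes left out. This gave 80 of 15089 genes, namely 34 for complex I, 4 for complex II, 9 for complex III, 16 for complex IV and 17 for complex V. All 80 passed the filter on low counts, which removed 0 of the 15089 genes. Ndufa4 and its homologue Ndufa4l2 were placed with complex IV, to which the Ndufa4 protein is known to bind. The symbols also take in 3 genes whose products are known as assembly or supercomplex factors rather than subunits, which are Cox7a2l, Atp5s and Atp5sl. RefSeq now lists the latter pair as Dmac2l and Dmac2.

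Complexes I and II pass electrons from NADH and succinate to ubiquinone, complex III hands them to cytochrome c and complex IV to oxygen. Complexes I, III and IV pump protons across the inner mitochondrial membrane, and complex V, the ATP synthase, lets them flow back to make ATP. Complex I oxidises NADH and so returns NAD+ to the mitochondrial matrix. Astrocytes are known for strong glycolysis, but they hold a full respiratory chain and also use it for fatty acid oxidation.

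RNA was sequenced from astrocytes that had been sorted with anti-ACSA-2 magnetic beads from the cortex on postnatal day 16, in 12 libraries of 1 mouse each. The control group, ctrl-2, had the labelled genotype Nmnat2f/+; NexCre+/-; Sarm1+/- in 4 mice, although the methods of the study allow these controls either 0 or 1 null allele of Sarm1. The 4 cKO;S/+ mice were labelled Nmnat2f/f; NexCre+/-; Sarm1+/-, and the 4 cKO;S/S mice Nmnat2f/f; NexCre+/-; Sarm1-/-. All 3 groups therefore carried the Nex-Cre driver, which acts in glutamatergic neurons and not in astrocytes, and the controls themselves had 1 floxed Nmnat2 allele. NMNAT2 makes NAD+ in axons, and SARM1 is an NAD+ hydrolase.

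Total counts ran from 16506627 to 22159404 per library, and 75549 to 95796 of them fell on the 80 genes. Astrocyte markers (10 genes) had a mean log2 CPM (reads scaled to the size of the library) of 9.71 to 10.5. RNA of other cells was present too, with a mean log2 CPM of 7.32 to 9.08 for 8 oligodendrocyte markers, 7.04 to 8.66 for 10 microglia markers and 2.59 to 4.74 for 8 neuron markers. Ctrl-2 replicate 4 had the highest oligodendrocyte sum, 10918 CPM beside 28982 CPM of astrocyte markers. Nmnat2 stood at 38.5 ± 2.90 CPM (SD, n = 4) in ctrl-2 mice, 22.8 ± 4.37 in cKO;S/+ mice and 30.1 ± 9.54 in cKO;S/S mice. Sarm1 stood at 9.44 ± 3.13, 8.79 ± 1.81 and 6.09 ± 1.25 CPM, with overlapping groups. Counts over whole genes do not tell a deleted exon from the rest, and Nmnat2 was deleted in neurons, so these values do not check the genotypes. Xist stood at 1031 to 1385 CPM in 3 cKO;S/+ libraries, 2 cKO;S/S libraries and 1 ctrl-2 library and at 0.392 CPM or less in the others, so sex was not balanced between the groups. In bulk RNA, fewer cells of a type and less RNA per cell cannot be told apart.

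Promoters of subunit genes are known to bind a shared set of factors, among them NRF1 and the ETS factor GABP. The promoter sequences of the 80 genes were searched for motifs of such factors. RefSeq promoter windows of 300 bases (build GRCm38.p6) were found for 66 of the 80 genes. The 12-base NRF1 consensus was present, on either strand, in 7 of these 66 genes (10.6%), against 1.41% of the 27025 genes with a window. A looser form, the inner 10 bases with any base at the degenerate position, was present in 16 of 66 (24.2%), against 5.19%. The ETS motif CCGGAAG was present in 16 of 66 (24.2%), against 9.93%. The SP1 motif GGGCGG was found in 40.9% of the subunit genes and 38.2% of all genes, and the CCAAT box, searched as CCAAT, in 45.5% and 41.1%. The TATA box motif TATAAA was found in 7.58% and 15.7%. Of the 6 subunit genes with the lowest levels, 4 had a window. Among these 4, 0 held the ETS motif, the TATA box motif or either form of the NRF1 motif, 2 held the SP1 motif and 4 the CCAAT box. With 4 genes, and these motifs rare over all genes, the counts cannot show a link between motif and level. All counts of motifs are matches of letters and not measured binding. The 27025 genes were not limited to those measured here, nor matched to the subunit genes for level.

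The 250 bases before the annotated start are shown for 3 genes that differ in these motifs. Sdhd, a membrane anchor of complex II, holds 1 NRF1 and 1 ETS motif. Cox6a1, the widely expressed isoform of a complex IV subunit, holds 1 ETS motif, 2 SP1 motifs and 1 CCAAT box, and the looser NRF1 form, left in lower case. Cox7a1, a complex IV isoform of heart and skeletal muscle and the least abundant member here, holds 2 CCAAT boxes and none of the others. They lie at chr9:50603850-50604099 (minus strand), chr5:115348959-115349208 (minus strand) and chr7:30183921-30184170 (plus strand), in GRCm38.p6 as given by RefSeq. Capitals mark the NRF1 consensus and the ETS, SP1 and CCAAT motifs on either strand, and each sequence reads 5′ to 3′.
Sdhd: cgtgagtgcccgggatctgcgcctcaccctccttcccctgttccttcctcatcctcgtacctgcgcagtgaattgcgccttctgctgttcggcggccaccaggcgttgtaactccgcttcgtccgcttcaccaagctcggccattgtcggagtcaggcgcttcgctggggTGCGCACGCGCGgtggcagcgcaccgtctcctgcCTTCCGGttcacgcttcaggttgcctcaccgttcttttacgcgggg
Cox6a1: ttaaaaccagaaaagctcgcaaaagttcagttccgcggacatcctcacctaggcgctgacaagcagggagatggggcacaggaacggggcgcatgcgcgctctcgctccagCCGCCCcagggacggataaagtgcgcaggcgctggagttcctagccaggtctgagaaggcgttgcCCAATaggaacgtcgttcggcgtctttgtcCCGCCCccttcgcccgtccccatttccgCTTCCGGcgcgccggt
Cox7a1: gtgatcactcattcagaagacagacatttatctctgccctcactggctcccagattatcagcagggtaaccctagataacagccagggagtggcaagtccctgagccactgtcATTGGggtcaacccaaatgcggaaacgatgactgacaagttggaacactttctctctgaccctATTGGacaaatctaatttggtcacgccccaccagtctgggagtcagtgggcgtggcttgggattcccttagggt

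Levels were compared between genes as RPKM (CPM per kilobase of exon), over all 12 libraries. The 80 genes had a median of 51.2 RPKM, against 8.47 RPKM for all 15089 genes, and 53 of the 80 lay above the 90th percentile of all genes, which was at 37.4 RPKM. Levels were least spread in complexes II and III. The means ran from 10.6 RPKM (Ndufa11) to 119 RPKM (Ndufb10) in complex I, from 24.6 (Sdhd) to 76.9 (Sdha) in complex II and from 39.1 (Uqcrc2) to 128 (Uqcrh) in complex III. Complexes IV and V held both ends of the range. Cox6c, a small membrane subunit of complex IV, was highest of all at 244 RPKM, and Atp5b, the catalytic beta subunit of the ATP synthase, followed at 198 RPKM. Only 6 genes had a mean under 10 RPKM, and these were 4 isoform genes of complex IV (Cox7a1, Cox6b2, Ndufa4l2 and Cox4i2) with Atp5s and Atp5sl. Many subunit genes have processed pseudogenes, and how reads with several matches were counted is not given in the sources used here, so a level may be too low where reads were shared.

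**Figure D1:**
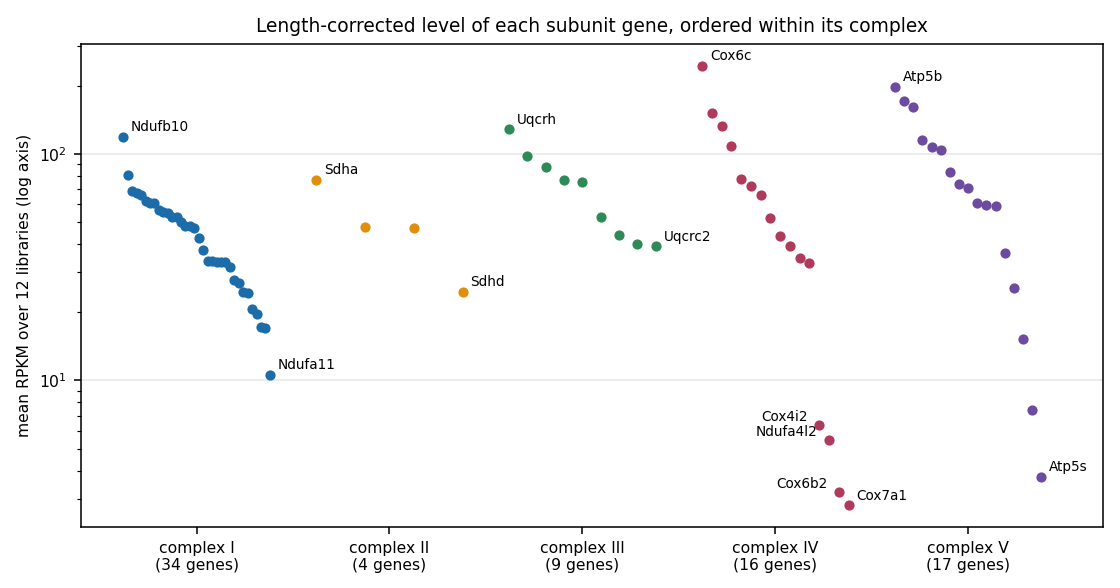
Mean RPKM over the 12 libraries (log axis) of each of the 80 genes, ordered from high to low within complexes I to V, 1 point per gene. Most genes lie between 20 and 100 RPKM, and Cox4i2, Ndufa4l2, Cox6b2 and Cox7a1 form a separate low group in complex IV.

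The most abundant core subunits overlapped across the genotypes. Atp5b measured 382, 380, 396 and 355 CPM in the 4 ctrl-2 libraries, 356, 348, 372 and 371 CPM in cKO;S/+ mice and 350, 383, 375 and 389 CPM in cKO;S/S mice. The groups overlapped, with means of 201 ± 9.21, 193 ± 6.21 and 199 ± 9.06 RPKM (SD, n = 4). Atp5a1, the alpha subunit that alternates with beta in the catalytic ring, stood at 402 ± 7.68, 382 ± 15.5 and 388 ± 20.6 CPM in the same order. Sdha had 223, 221, 226 and 216 CPM in ctrl-2 mice, 218, 220, 230 and 207 in cKO;S/+ mice and 204, 222, 224 and 228 in cKO;S/S mice, again with full overlap. Cox6c measured 132, 129, 139 and 114 CPM in ctrl-2 mice, 123, 115, 117 and 121 in cKO;S/+ mice and 117, 115, 113 and 142 in cKO;S/S mice. Its highest library was cKO;S/S replicate 18, which lay far above the rest of its group.

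Summed over the 80 genes, the chain took 0.423% (cKO;S/+ replicate 9) to 0.474% (ctrl-2 replicate 6) of the raw counts of a library. The CPM sums use scaled library sizes and so are not in exact proportion to these shares. The sum was 4570, 4570, 4748 and 4380 CPM in ctrl-2 mice, 4521, 4324, 4517 and 4409 CPM in cKO;S/+ mice and 4182, 4442, 4473 and 4568 CPM in cKO;S/S mice. The groups overlapped, and the means were 4567 ± 150, 4443 ± 94.9 and 4416 ± 165 CPM (SD, n = 4). The lowest sum was that of cKO;S/S replicate 15, a library in which 68 of the 80 genes lay below their mean over the ctrl-2 libraries. That library also had the lowest astrocyte marker mean (9.71, against 10.1 to 10.3 in the other cKO;S/S libraries, on the log2 CPM scale) and the highest neuron marker mean (4.74), and the part of either in the low sum was not tested.

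The 5 complexes took similar shares of the sum in every library. Complex I gave 30.2% to 31.1% of the summed counts in every library, complex II 7.74% to 8.38%, complex III 11.7% to 12.2%, complex IV 14.003% to 15.3% and complex V 34.0% to 35.4%. Complex III had the clearest offset between group means, with 547 ± 14.03 CPM in ctrl-2 mice, 523 ± 9.47 in cKO;S/+ mice and 522 ± 21.9 in cKO;S/S mice. Every ctrl-2 library (536 to 568 CPM) lay above every other library (489 to 534 CPM) in that sum. The separation was narrow and held only with scaled library sizes. As shares of raw counts the groups overlapped, with 0.0552% in cKO;S/S replicate 18 and 0.0541% in ctrl-2 replicate 4. No test was made on sums over the chosen genes.

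**Figure D2:**
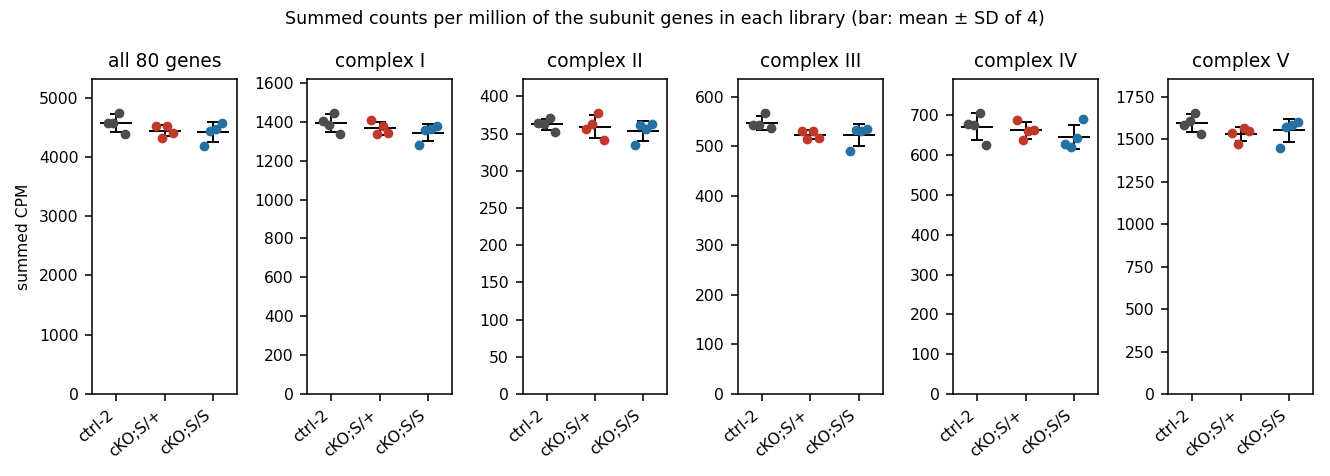
Summed CPM (vertical axes, from 0) of all 80 genes and of each complex in the 4 libraries of each genotype; points are libraries and bars the mean ± SD. The groups overlap in all panels except that of complex III, where the ctrl-2 libraries lie at 536 to 568 CPM and the others at 489 to 534 CPM. As shares of raw counts the groups overlap for complex III too.

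Subunit transcripts varied little between mice of one genotype. The median within-group SD of log2 CPM was 0.0881 for the 80 genes, 0.174 for all 15089 genes and 0.138 for the 8283 other genes of like abundance (11.1 to 107 CPM). It lay below the median of all genes for 73 of the 80. The steadiest member was Ndufa10, an accessory subunit of complex I (SD 0.0480), and the most variable was Cox7a1 (SD 0.388), which also had the fewest reads, down to 12 in a library. Mitochondrial ribosomal protein genes (77 genes, SD 0.119) and assembly factors (47 genes, SD 0.132) lay in between.

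Between cKO;S/+ and ctrl-2, 0 of the 80 subunit genes passed edgeR's quasi-likelihood test after adjustment over all genes, against a background of 7.28% of all genes called (890 higher and 208 lower). That background was not stable to leaving out single libraries. Of the 15089 genes, 0 were called without replicate 4, 6 or 7 of the controls or replicate 8 of the cKO;S/+ mice. The count was 37 without cKO;S/+ replicate 10, 468 without replicate 9 and 2578 without replicate 14 of that group. Without adjustment, 6 of 80 had a p under 0.05, 3 higher and 3 lower, where the background was 23.6%, and 3 of 80 did without control replicate 6. The groups did not overlap in CPM for 4 of 80, 2 in each direction, with a background of 11.3%. edgeR's likelihood ratio test called 0 (background 10.6%), limma-voom 0 (background 6.8%) and DESeq2 1, namely Ndufs1 (background 12.4%). The median log2 fold change of the 80 genes was -0.04, beside 0.00 for all genes, with 28 genes above 0 and 52 below. It was -0.0132 without control replicate 6, -0.0178 without cKO;S/+ replicate 9 and -0.0628 without cKO;S/+ replicate 8. By complex the medians were -0.02 (I), 0.00 (II), -0.07 (III), -0.05 (IV) and -0.06 (V).

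The precision was enough to bound most of these differences. The 95% interval of the log2 fold change was within ±0.5 (1.41-fold) for 75 of the 80 genes and within ±0.25 (1.19-fold) for 48. The 5 wider ones were Atp5s, Cox4i2, Cox6b2, Cox7a1 and Ndufa4l2, which are among the 6 genes of lowest level. The median interval reached 0.16 to either side of the estimate, against 0.26 over all genes.

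**Figure D3:**
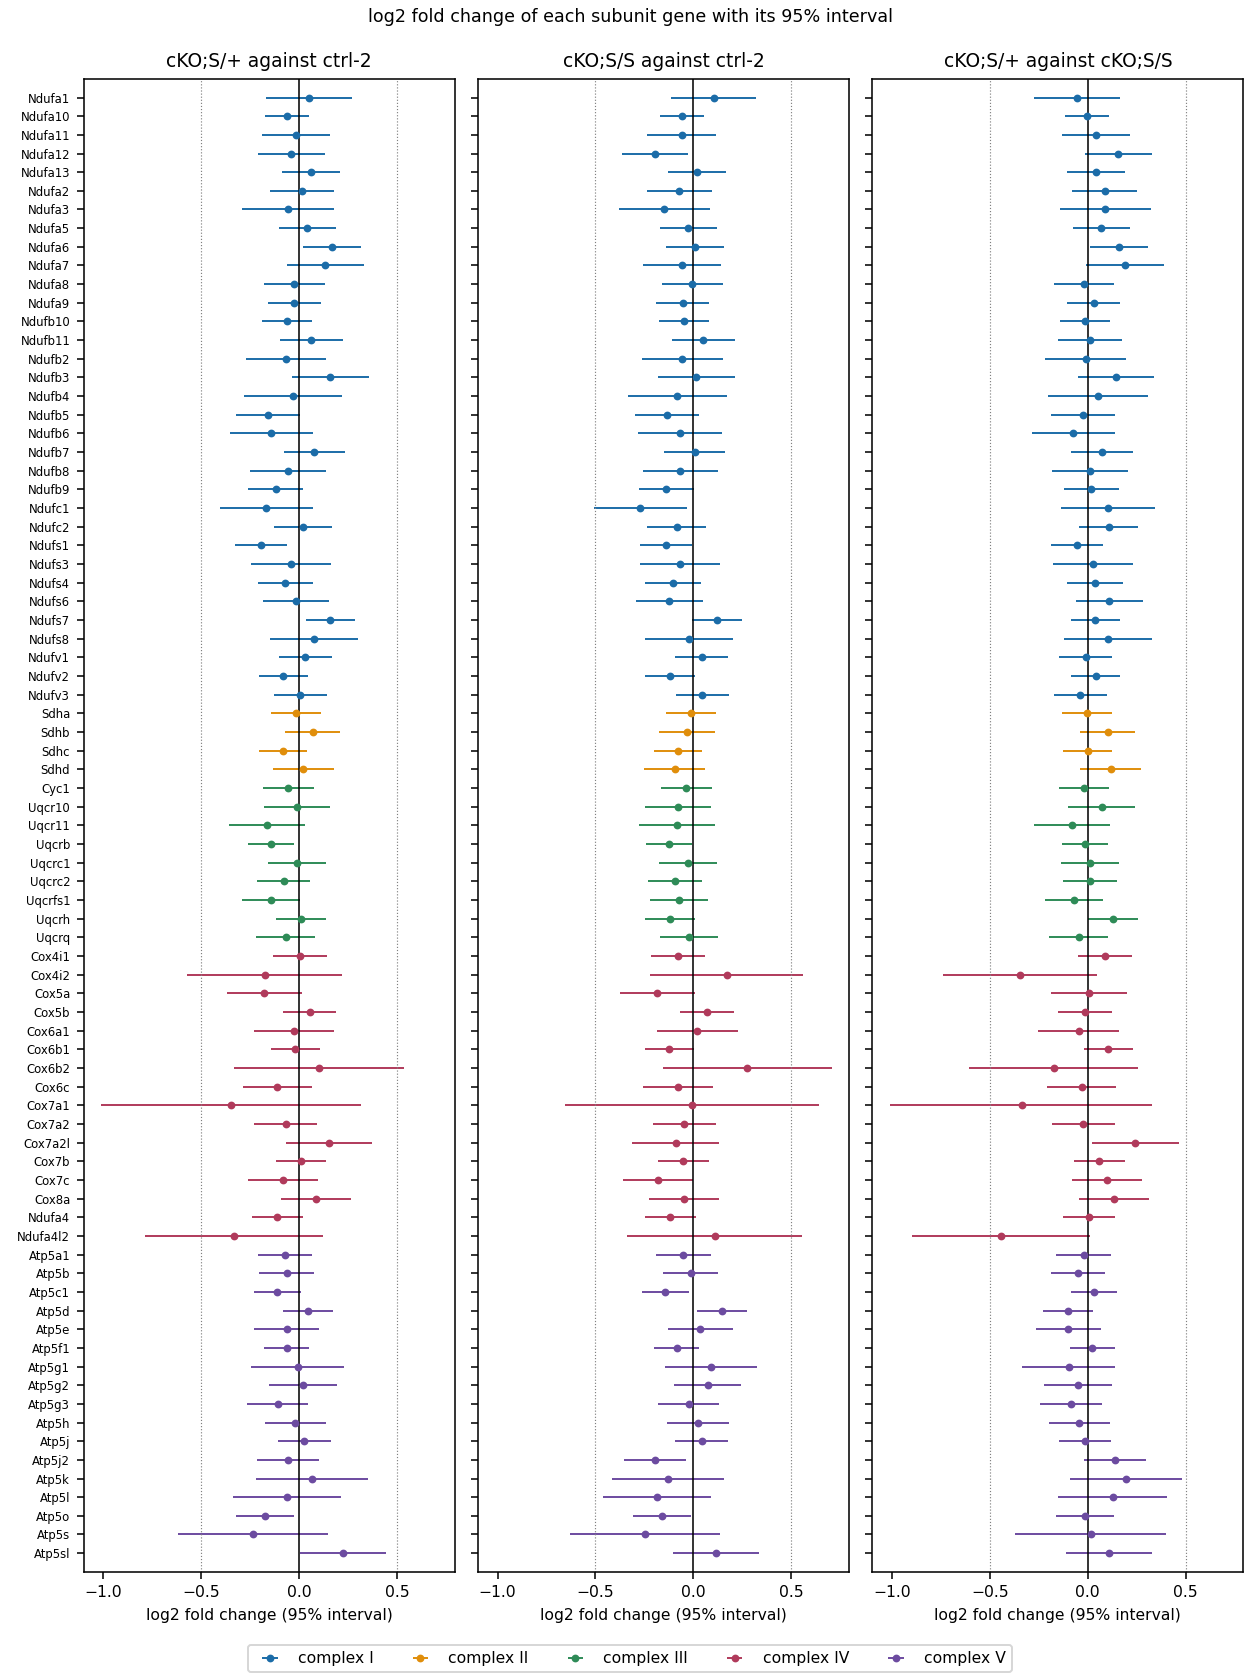
log2 fold change (horizontal axis) of 79 of the 80 genes, each with its 95% interval, in the 3 comparisons, ordered by complex, from edgeR's quasi-likelihood fit; dotted lines mark ±0.5. For cKO;S/+ against ctrl-2 the intervals of 74 of the 79 genes drawn lie inside the dotted lines, and the widest belongs to Cox7a1.

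Complex I held the member nearest to a call. Ndufs1 (chromosome 1, 63143592 to 63176822) encodes the largest core subunit, which carries iron-sulfur clusters on the path from NADH. It measured 106, 105, 111 and 104 CPM in ctrl-2 mice, 86.8, 90.8, 93.2 and 101 CPM in cKO;S/+ mice and 89.2, 98.5, 97.5 and 101 CPM in cKO;S/S mice. All mutant libraries lay below all control libraries, the nearest being cKO;S/+ replicate 14. The log2 fold change of cKO;S/+ against ctrl-2 was -0.19 (SE 0.06, adjusted p = 0.0737 by edgeR's quasi-likelihood test), and it passed with an adjusted p of 0.0208 without cKO;S/+ replicate 14. Leaving out any other single library gave no call. By the same test, the smallest adjusted p of the 80 genes was 0.181 without control replicate 6 and 0.219 without cKO;S/+ replicate 8. An exon of Ndufs1 overlaps the antisense gene Ino80dos, and since the strand setting of the counting is not given, reads of the pair cannot be told apart in that stretch.

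Ndufs7 (chromosome 10, 80249105 to 80256794), a core subunit with an iron-sulfur cluster near the ubiquinone site, was placed the other way. Its libraries gave 40.1, 40.1, 39.1 and 36.8 CPM in ctrl-2 mice, 43.2, 40.9, 45.6 and 44.8 CPM in cKO;S/+ mice and 41.6, 41.1, 44.3 and 42.8 CPM in cKO;S/S mice. All mutant libraries lay above all controls, with a log2 difference of 0.16 (SE 0.06, adjusted p = 0.117, quasi-likelihood test) in cKO;S/+ mice. Ndufa6 (chromosome 15, 82350139 to 82354291), an accessory subunit, had 37.4, 37.6, 35.2 and 33.7 CPM in ctrl-2 mice and 43.7, 37.7, 41.3 and 38.9 CPM in cKO;S/+ mice, without overlap (log2 fold change 0.17, SE 0.07, adjusted p = 0.156). In cKO;S/S it stood at 36.1, 34.2, 35.6 and 38.8 CPM, overlapping both other groups. Subunits of one complex therefore had point estimates of opposite sign, and none of the 3 passed the test.

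None of the other core subunits of complex I described here passed the quasi-likelihood test in any comparison. Ndufv1, which binds FMN and accepts electrons from NADH, measured 63.8 to 72.9 CPM in ctrl-2 mice, 64.8 to 71.5 in cKO;S/+ mice and 65.05 to 74.0 in cKO;S/S mice. Its partner Ndufv2 ran from 80.9 to 84.1 CPM in ctrl-2 mice, from 71.2 to 81.8 in cKO;S/+ mice and from 71.7 to 80.7 in cKO;S/S mice, so that the cKO;S/S libraries all lay below the controls. Ndufs3 (32.0 to 42.3 CPM in ctrl-2 mice, 32.7 to 37.4 in cKO;S/+ mice) and Ndufs8 (24.2 to 31.3 and 25.3 to 33.1 CPM) overlapped between these groups.

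In complex II, Sdhb, the iron-sulfur subunit, measured 48.6 to 51.7 CPM in ctrl-2 mice, 47.9 to 56.2 in cKO;S/+ mice and 45.9 to 52.7 in cKO;S/S mice. The membrane anchors Sdhc and Sdhd stood at 54.9 to 61.9 and 31.0 to 34.1 CPM in ctrl-2 mice, and at 53.9 to 56.8 and 30.9 to 36.4 CPM in cKO;S/+ mice. None of the 4 genes had an unadjusted p under 0.05 in any of the 3 comparisons, and every interval of cKO;S/+ against ctrl-2 was within ±0.25.

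In complex III, Uqcrb (chromosome 13, 66900576 to 66905350), a small subunit at the ubiquinone site, had 45.5, 46.9, 47.2 and 46.5 CPM in ctrl-2 mice. It had 42.0, 43.5, 40.2 and 43.2 CPM in cKO;S/+ mice and 44.5, 42.4, 40.3 and 43.5 CPM in cKO;S/S mice, all below the controls. The log2 fold change was -0.14 in cKO;S/+ mice (SE 0.05, adjusted p = 0.136, quasi-likelihood test). The Rieske iron-sulfur protein Uqcrfs1 measured 74.9, 66.5, 77.2 and 72.3 CPM in ctrl-2 mice and 63.9, 66.4, 66.6 and 66.1 CPM in cKO;S/+ mice, where 1 control reached into the mutant range. Cyc1, which encodes cytochrome c1, ran from 46.6 to 51.0 CPM in ctrl-2 mice, from 45.7 to 47.9 in cKO;S/+ mice and from 44.4 to 51.6 in cKO;S/S mice.

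In complex V, Atp5o (chromosome 16, 91925223 to 91931630) encodes the stalk subunit that confers sensitivity to oligomycin. It had 88.2, 85.2, 94.1 and 79.5 CPM in ctrl-2 mice, 75.2, 74.1, 81.0 and 77.2 CPM in cKO;S/+ mice and 71.0, 76.5, 77.7 and 85.3 CPM in cKO;S/S mice. The ctrl-2 and cKO;S/+ ranges touched at 1 library each, with a log2 difference of -0.17 (SE 0.07, adjusted p = 0.147, quasi-likelihood test). Atp5sl (chromosome 7, 25619414 to 25625550) is listed by RefSeq as the assembly component Dmac2. It had 17.03, 16.3, 17.6 and 15.5 CPM in ctrl-2 mice and 21.0, 20.9, 19.1 and 16.7 CPM in cKO;S/+ mice (log2 fold change 0.23, SE 0.10, adjusted p = 0.198).

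**Figure D4:**
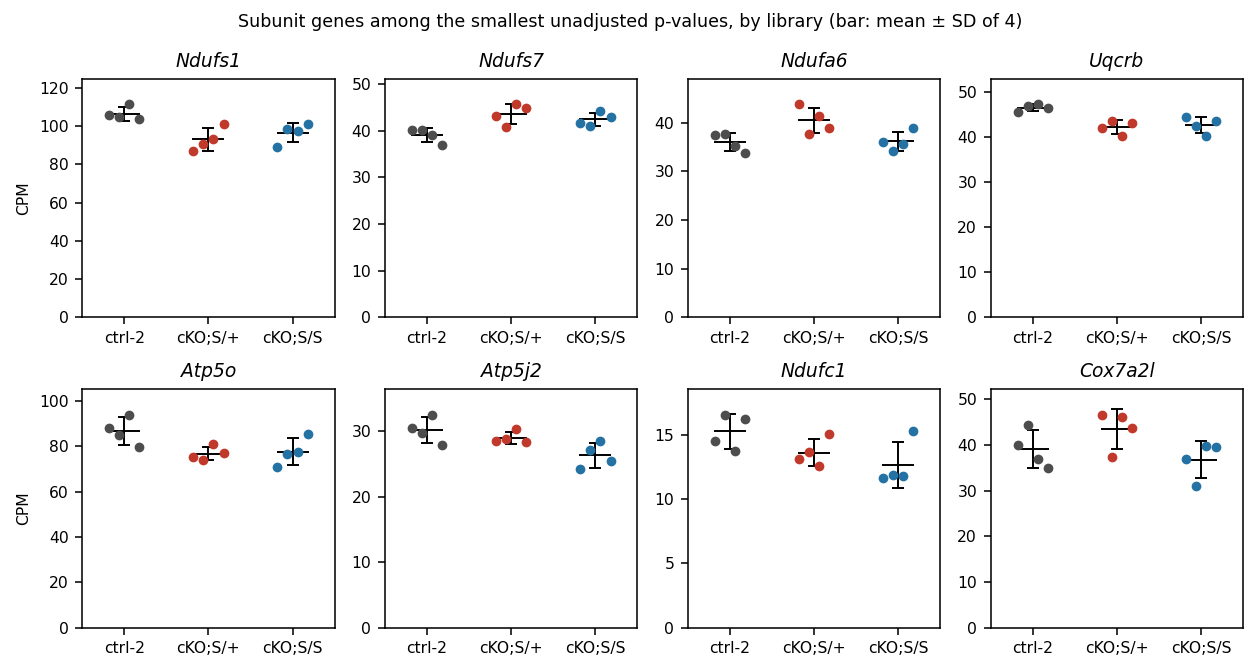
CPM (vertical axes, from 0) of 8 genes among the smallest unadjusted p-values of the 3 comparisons, in each of the 4 libraries of each genotype; points are libraries and bars the mean ± SD. Ndufs1 and Uqcrb lie lower and Ndufs7 higher in all 8 mutant libraries than in the controls, and the other 5 genes overlap with the controls in at least 1 mutant group.

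Between cKO;S/S and ctrl-2, 0 of 80 subunit genes passed the quasi-likelihood test, and the background was 0% of all genes. Without adjustment, 8 of 80 had a p under 0.05, 1 higher and 7 lower, with a background of 11.7%. This count was 3 without control replicate 5 or 6 and 2 without cKO;S/S replicate 15. The likelihood ratio test called 0 of 80 (background 0.318%), limma-voom 0 (background 0%) and DESeq2 0 of the 78 it could adjust (background 0.435%). The groups did not overlap for 10 of 80 genes (background 6.02%), 2 higher and 8 lower. The median log2 fold change was -0.06, beside 0.01 for all genes, with 21 of 80 above 0, and it was -0.0309 without control replicate 6 and -0.0275 without cKO;S/S replicate 15. By complex it was -0.06 in complexes I and II, -0.08 in complex III, -0.05 in complex IV and -0.02 in complex V. Since both mutant groups were set against the same 4 controls, values below or above the controls in both are not separate observations.

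The member with the smallest p there was Atp5j2 (chromosome 5, 145183704 to 145191541), a small membrane subunit of the ATP synthase. It had 30.5, 29.7, 32.5 and 27.8 CPM in ctrl-2 mice, 28.4, 28.8, 30.3 and 28.4 CPM in cKO;S/+ mice and 24.2, 27.0, 28.6 and 25.5 CPM in cKO;S/S mice. The groups overlapped by 1 library each, and the log2 fold change was -0.20 (SE 0.07, adjusted p = 0.368, quasi-likelihood test). Atp5c1 (chromosome 2, 10056030 to 10080510), the gamma subunit that turns inside the catalytic ring, measured 129, 137, 138 and 133 CPM in ctrl-2 mice and 115, 124, 127 and 119 CPM in cKO;S/S mice, without overlap (log2 fold change -0.14, SE 0.05, adjusted p = 0.376).

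Atp5d (chromosome 10, 80138698 to 80145828), the delta subunit of the same central stalk, was the 1 higher gene. It had 68.9, 64.1, 67.4 and 60.3 CPM in ctrl-2 mice and 70.0, 71.2, 74.8 and 72.3 CPM in cKO;S/S mice, without overlap (log2 fold change 0.15, SE 0.06, adjusted p = 0.385). Subunits of one stalk thus had point estimates of opposite sign. Atp5o was -0.16 in this comparison (SE 0.07, adjusted p = 0.401).

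In complex I, Ndufa12 (chromosome 10, 94199035 to 94221440), an accessory subunit, had 41.6, 38.1, 36.1 and 39.4 CPM in ctrl-2 mice and 31.8, 37.2, 36.8 and 29.7 CPM in cKO;S/S mice (log2 fold change -0.20, SE 0.08, adjusted p = 0.383). Among the 4 mutant libraries, 2 were within the control range. Ndufc1 (chromosome 3, 51405479 to 51408955), a small membrane subunit, had 14.5, 16.6, 13.7 and 16.2 CPM in ctrl-2 mice and 11.6, 11.9, 11.8 and 15.3 CPM in cKO;S/S mice. The single high library was cKO;S/S replicate 18, and the log2 fold change was -0.27 (SE 0.11, adjusted p = 0.385).

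Between the mutants, cKO;S/+ against cKO;S/S, 0 of 80 subunit genes passed the quasi-likelihood test (background 0%). Without adjustment, 3 of 80 had a p under 0.05, all higher in cKO;S/+ mice, with a background of 18.3%. This count was 0 without cKO;S/+ replicate 8, 1 without cKO;S/+ replicate 10 or cKO;S/S replicate 15 and 5 without cKO;S/S replicate 17. The likelihood ratio test called 0 (background 3.15%), limma-voom 0 (background 0%) and DESeq2 0 (background 4.14%), and the groups did not overlap for 3 of 80 (background 5.48%). The median log2 fold change was 0.01, beside 0.00 for all genes, and its sign was not stable to single libraries, at -0.00736 without cKO;S/+ replicate 8 and -0.0159 without cKO;S/S replicate 15. Of the intervals, 76 of 80 were within ±0.5.

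Cox7a2l (chromosome 17, 83501917 to 83514333), which links complexes III and IV in supercomplexes, had the smallest p. It measured 46.6, 37.3, 46.1 and 43.8 CPM in cKO;S/+ mice, 36.9, 31.0, 39.7 and 39.5 CPM in cKO;S/S mice and 40.03, 44.4, 37.0 and 35.0 CPM in ctrl-2 mice. The mutants overlapped through cKO;S/+ replicate 9, and the log2 fold change was 0.24 (SE 0.10, adjusted p = 0.235, quasi-likelihood test). Uqcrh (chromosome 4, 116066965 to 116075070), the hinge subunit between cytochromes c1 and c, had 71.7, 72.6, 73.3 and 71.2 CPM in cKO;S/+ mice and 63.6, 69.8, 69.8 and 60.6 CPM in cKO;S/S mice, without overlap (log2 fold change 0.13, SE 0.06, adjusted p = 0.267). Ndufa6 differed by 0.16 on the log2 scale (SE 0.07, adjusted p = 0.237), Ndufa7, an accessory subunit of complex I, 0.19 (SE 0.09, adjusted p = 0.293) and Ndufa12 0.16 (SE 0.08, adjusted p = 0.317).

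Several subunits of complexes IV and V exist as isoforms from separate genes, and the form usual in brain was the higher one in each case. Cox4i1, the common form of the regulatory subunit 4, measured 108 to 124 CPM in ctrl-2 mice, and its hypoxia-inducible alternative Cox4i2 reached 4.15% ± 0.749 of the RPKM of Cox4i1 in ctrl-2 mice (SD, n = 4), 3.64% ± 0.526 in cKO;S/+ mice and 4.90% ± 0.721 in cKO;S/S mice. Ndufa4l2, also known as a target of hypoxia-inducible factors, stood at 8.31% ± 1.57, 7.12% ± 1.87 and 9.77% ± 2.44 of Ndufa4. Cox7a1 reached 8.99% ± 2.73, 7.43% ± 1.83 and 9.29% ± 2.98 of Cox7a2, and Cox6b2, known from testis, 3.68% ± 0.911, 3.996% ± 0.480 and 4.85% ± 0.452 of Cox6b1. Each isoform's range overlapped between the groups except that of Cox4i2 between the mutants, where all cKO;S/+ libraries (3.17% to 4.17%) lay below all cKO;S/S libraries (4.29% to 5.90%).

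The 3 genes for the identical mature c subunit of the ATP synthase ring were also unequal. Atp5g3 was the highest at 57.6 to 69.1 CPM in ctrl-2 mice, and Atp5g2 and Atp5g1 had 29.3% ± 2.74 and 17.6% ± 1.08 of its RPKM there. In cKO;S/+ the shares were 32.1% ± 2.16 and 18.9% ± 2.01, and in cKO;S/S mice 31.3% ± 1.77 and 19.1% ± 2.32. Cox6a1 and Cox8a, forms found in most tissues, measured 33.1 to 43.7 and 55.7 to 62.5 CPM in ctrl-2 mice, and their muscle forms were not analysed here.

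The levels of Ndufa4l2 and Cox4i2 went with those of markers of mural cells, the pericytes and smooth muscle of vessels, in which both genes are known to be enriched in brain. Ndufa4l2 (chromosome 10, 127509274 to 127517154) had 6.15, 5.30, 4.31 and 6.26 CPM in ctrl-2 mice, 3.86, 3.09, 5.33 and 5.19 CPM in cKO;S/+ mice and 6.54, 4.25, 5.81 and 7.16 CPM in cKO;S/S mice. The groups overlapped, with a log2 fold change of -0.33 for cKO;S/+ against ctrl-2 (SE 0.21) and -0.44 against cKO;S/S (SE 0.21, adjusted p = 0.287, quasi-likelihood test). Cox4i2 (chromosome 2, 152753916 to 152765039) had 5.10, 5.15, 3.58 and 4.61 CPM in ctrl-2 mice, 3.71, 3.43, 4.62 and 4.58 CPM in cKO;S/+ mice and 4.35, 4.48, 5.27 and 6.75 CPM in cKO;S/S mice, and its log2 fold change between the mutants was -0.35 (SE 0.18, adjusted p = 0.340).

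The 12 mural markers had a mean log2 CPM of 5.27 to 5.62 in ctrl-2 mice, 4.68 to 5.38 in cKO;S/+ mice and 5.20 to 5.69 in cKO;S/S mice, and none of them was at 0 in any library. Over the 12 libraries, log2 CPM of Ndufa4l2 correlated with this mean (Pearson r = 0.862, permutation p = 0.00021, adjusted 0.00063; Spearman rho = 0.776, permutation p = 0.00418, adjusted 0.0125), and r was 0.664 without the 2 libraries farthest from the median of the markers. For Cox4i2, r was 0.780 (permutation p = 0.0032, adjusted 0.0048) and rho 0.573 (permutation p = 0.0553, adjusted 0.0829), with r = 0.508 without those 2. Within the 6 libraries with Xist, r was 0.892 and 0.908, and within the 6 without it 0.738 and 0.754. The permutations ran over all 12 libraries without regard to genotype. The p-values therefore mix differences between groups with those within them, and no relation within a genotype was computed. These mural relations were 2 of 3 computed. The other set Ndufa4l2 against Shmt2, which overlaps its exon on the opposite strand, and gave r = 0.327 (permutation p = 0.301, adjusted 0.301) and rho = 0.0979 (permutation p = 0.767, adjusted 0.767), with r = -0.535 without the 2 farthest libraries. With the mural marker mean as a covariate, the log2 fold changes of cKO;S/+ against ctrl-2 were 0.03 for Ndufa4l2 and 0.10 for Cox4i2, whereas that of Cox4i2 was -0.18 without it. Between the mutants the same covariate left -0.0430 for Ndufa4l2 and -0.0399 for Cox4i2. All 12 mural markers were themselves below 0 in cKO;S/+ against ctrl-2, so genotype and marker level cannot be told apart in this fit. It called 0 of all 15089 genes in that comparison, and the cause of the shifts was not tested.

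**Figure D5:**
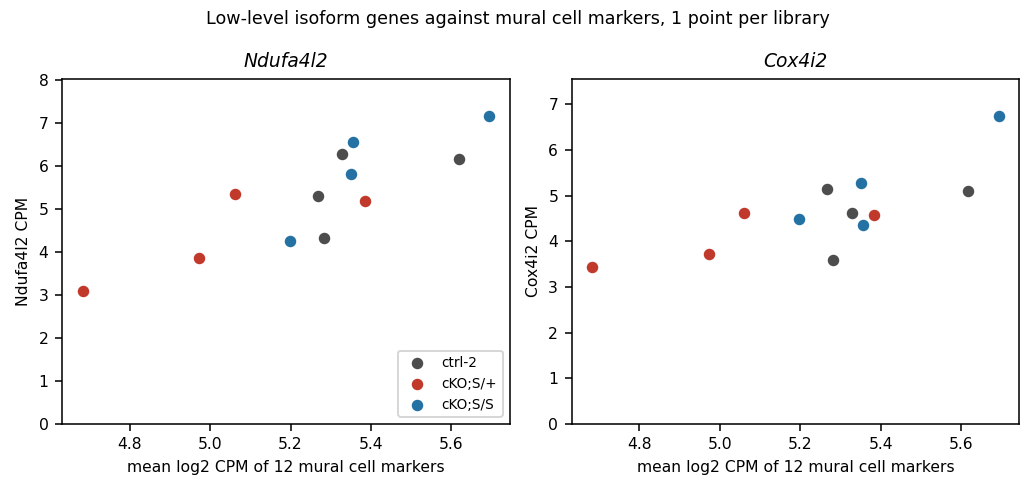
CPM of Ndufa4l2 and Cox4i2 (vertical axes, from 0) against the mean log2 CPM of 12 mural cell markers (horizontal axis), 1 point per library and 1 colour per genotype. Both genes are higher in libraries with more mural marker RNA (r = 0.862 and 0.780 over 12 libraries), and the lowest point of either gene is cKO;S/+ replicate 9.

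The genes whose log2 CPM followed Ndufa4l2 most closely over the 12 libraries were Enpep (r = 0.929), Stx12 (0.923), Gnb1 (0.904), Fam122b (0.902) and Lsm11 (0.896). For Cox4i2 they were 4921524J17Rik (r = 0.912), Xkr8 (0.856), Sfn (0.851), Stx12 (0.822) and Sec24a (0.814). These are descriptions, picked as the highest of 15089 genes over libraries that share genotype and depth.

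Other genes of mitochondrial respiration were counted in the comparison of cKO;S/+ with ctrl-2, where 7.28% of all genes were called and 23.6% had an unadjusted p under 0.05. Of 47 assembly factors, 0 passed (median log2 fold change -0.01), with Cox15, needed for heme A synthesis, at -0.16 (SE 0.07, adjusted p = 0.182) and Surf1, a complex IV assembly factor, at 0.15 (SE 0.07, adjusted p = 0.211). Of 8 further chain components 0 passed (median -0.12), of 12 genes of mitochondrial import and the outer membrane 0 (median -0.04), of 77 mitochondrial ribosomal proteins 0 (median -0.01) and of 15 regulators of mitochondrial biogenesis 0 (median 0.05). Without adjustment, 2, 1, 2, 5 and 2 genes of these lists had a p under 0.05, in the order named. Among 18 genes of the citric acid cycle and pyruvate dehydrogenase, 0 rose and 1 fell (median -0.08). This was Dld, the dihydrolipoamide dehydrogenase shared by several dehydrogenase complexes, at 201 ± 10.2 CPM in ctrl-2 mice and 133 ± 33.2 in cKO;S/+ mice (SD, n = 4, log2 fold change -0.60, SE 0.16, adjusted p = 0.0455 by edgeR's quasi-likelihood test). Of 12 targets of hypoxia-inducible factors 1 rose and 0 fell, and this was Pfkfb3, which raises glycolytic flux, at 128 ± 12.7 and 221 ± 56.0 CPM (log2 fold change 0.79, SE 0.16, adjusted p = 0.0214). Neither call was stable to leaving out single libraries. Without any 1 of ctrl-2 replicates 4 to 7, cKO;S/+ replicates 8 to 10 or cKO;S/S replicates 16 and 17, Dld missed the threshold, with a log2 fold change from -0.76 to -0.45 and adjusted p from 0.0572 to 0.115. Pfkfb3 missed it when control replicate 4, 6 or 7, or replicate 8 or 10 of the cKO;S/+ mice, was left out, at 0.66 to 0.84 and adjusted p from 0.0594 to 0.0821.

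The lists outside the chain are read against the same 7.28%. Of 10 immediate early genes 8 rose and 0 fell (median 1.07), of 10 microglia markers 6 rose and 0 fell (median 0.84), and of 80 cytosolic ribosomal proteins 3 rose and 0 fell (median 0.22, 40 of 80 with an unadjusted p under 0.05). Of 8 neuron markers 1 rose and 0 fell, with a median of 0.10, 5 markers above 0 and 3 below. The 1 that rose was Gad1, which makes GABA (log2 fold change 1.58, SE 0.33, adjusted p = 0.0218 by the quasi-likelihood test). Leaving out any of the 4 libraries without which 0 of all genes were called removes these calls too. The 8 oligodendrocyte markers had 0 calls and a median of -0.66, all 8 below 0 (unadjusted p under 0.05 for 3), the 12 mural markers 0 calls and a median of -0.35, all 12 below 0, the 8 endothelial markers 0 calls and a median of 0.26 and the 10 astrocyte markers 0 calls and a median of -0.03. Between the mutants the oligodendrocyte median was -0.78, with an unadjusted p under 0.05 for 7 of 8. Their mean log2 CPM was 7.33 to 9.08 in ctrl-2 mice, 7.32 to 8.30 in cKO;S/+ mice and 8.34 to 8.62 in cKO;S/S mice, and their part in the levels of the subunit genes was not tested. The microglia markers had a mean log2 CPM of 7.04 to 8.03 in ctrl-2 mice and 7.84 to 8.66 in cKO;S/+ mice, and in the fit that held them as a covariate 0 of 80 subunit genes and 0 of all 15089 genes passed, so that this fit does not tell the subunit genes from the rest. Their part in the levels of the subunit genes was not tested further. None of the lists had a call in the comparisons of cKO;S/S with ctrl-2 or of the mutants by the quasi-likelihood test. That test called 0 of all genes in both, so the lack of calls does not show equal marker levels. In cKO;S/S against ctrl-2 all 8 neuron markers were above 0 (median 1.002, unadjusted p under 0.05 for 5). Of the 10 astrocyte markers 9 were below 0 (median -0.302, unadjusted p under 0.05 for 3). For the microglia and oligodendrocyte markers that count was 0. The part of the neuron and astrocyte shifts in the levels of the subunit genes was not tested.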

How the data were processed

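RNA of sorted cortical astrocytes was measured in 12 libraries, grouped by the labelled genotype. The deposited table holds raw counts per gene, made by the authors. The tools, per the submitters' processing notes, were STAR 2.7.10a with build mm10, featureCounts of Subread 2.0.3, FastQC 0.11.5 and edgeR 4.2.1. For the annotation, strand setting and treatment of reads with several matches, no source used here gives a value. The deposited gene length equalled the union of exons. A set of 12 per-sample columns of log2 CPM and the authors' fold changes, p-values and false discovery rates were not used. Some genes are not reported here.

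Counts were analysed with edgeR 4.0.16 (R 4.3.3). filterByExpr (minimum count 10, minimum total count 15) removed 0 genes, libraries were scaled by TMM, and 1 quasi-likelihood model of 3 groups was fitted to all 12 libraries, with Benjamini-Hochberg adjustment over 15089 genes, two-sided, and a threshold of 0.05. Intervals are 95% and come from that fit. RPKM divide CPM by exon length. Nothing in the labels pairs libraries between groups. Correlations used 100000 permutations. Positions and promoters are from RefSeq (GRCm38.p6). The NRF1 motif was first searched in the looser form, and the consensus was added after its counts were seen. The test was checked on simulated data.

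Members and lists were chosen with earlier results of these data known. Genes named are those with the 6 smallest p-values per comparison, isoform sets, the 2 highest and the lowest level per complex, core subunits, up to 2 genes per list with the smallest p, and 5 genes per likeness search. Alternatives were RLE, upper-quartile and total-count scaling (without Rn45s), other filters, the likelihood ratio test, limma-voom 3.58.1, DESeq2 1.42.0, the groups of a comparison alone, each library left out, and covariates for Xist, microglia and mural markers. Precision rests on 4 mice per group and 16506627 to 22159404 counts per library.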

Additional observations from a re-analysis of the deposited data

Results flagged for a closer look

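Within groups of 4 libraries, 165 sets of values were examined for a library far from the other 3, by Dixon's ratio against its 95% critical value, and 6 stood out (3.64%), while chance gives about 1 in 20. For cKO;S/S these were the sum of complex III in replicate 15 (489 CPM, low), Atp5g2 in replicate 16 (18.1 CPM, high), and Cox6c (142 CPM), Ndufc1 (15.3 CPM) and Ndufs8 (30.3 CPM) in replicate 18, all high. The other was Uqcrh in ctrl-2 replicate 5 (75.8 CPM, high).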

How the results depend on the processing

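The 80 genes were recomputed under 24 alternatives in each comparison. The count of called members stayed at 0 under all of them in both comparisons with cKO;S/S. In cKO;S/+ against ctrl-2 it was 1, each time Ndufs1 and lower, with upper-quartile scaling (log2 fold change -0.23, adjusted p = 0.0428 by edgeR), with total-count scaling without Rn45s (-0.23, adjusted p = 0.0478) and with DESeq2 (-0.20, adjusted p = 0.0283). Leaving out single libraries gave 0 to 1, the 1 arising without cKO;S/+ replicate 14. Over all alternatives the log2 fold change of Ndufs1 ran from -0.24 to -0.11, with adjusted p from 0.0208 to 0.990. The median of the 80 genes moved from -0.0354 to -0.0768 with upper-quartile scaling and to -0.0733 with totals, and between the mutants from 0.0124 to -0.0353 with totals and -0.0105 with upper-quartile scaling, as the median of all genes moved too. Without single libraries the medians ran from -0.0628 to -0.0132 in cKO;S/+ against ctrl-2, from -0.0732 to -0.0275 in cKO;S/S against ctrl-2 and from -0.0159 to 0.0321 between the mutants. The log2 fold changes of Ndufa4l2 and Cox4i2 in cKO;S/+ against ctrl-2 turned from -0.33 to 0.0273 and from -0.18 to 0.10 with the mural marker covariate, and the cause was not tested. Signs held for the other 21 fold changes of subunit genes printed, although between the mutants those of Ndufa4l2 and Cox4i2 shrank from -0.44 to -0.0430 and from -0.35 to -0.0399 with that covariate. Among the named subunit genes whose fold changes are not printed, the sign turned in 65 of 1008 recomputed values in cKO;S/+ against ctrl-2, in 28 of 1008 in cKO;S/S against ctrl-2 and in 96 of 1032 between the mutants, for genes with log2 fold changes of up to 0.35, 0.068 and 0.11 in size, and 0 of these values became a call. Dld, Pfkfb3, Cox15 and Surf1 were recomputed under the same 24 alternatives, a choice made after seeing the data. Their signs held, Cox15 and Surf1 were called under 0, and Dld was called under 11 and Pfkfb3 under 16. With the Xist, microglia and mural covariates the adjusted p was 0.123, 0.990 and 0.3004 for Dld and 0.0948, 0.990 and 0.268 for Pfkfb3, and for Dld 0.0581 in the 2 groups alone. No paired analysis was possible because the replicate numbers in the labels are library numbers that no 2 groups share. With 4 libraries per group, Cox4i2, Cox6b2, Cox7a1 and Ndufa4l2, all under 10 RPKM, had intervals too wide to bound a change of 1.41-fold in any comparison.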

Other observations

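Exons of 6 of the 80 genes overlapped an exon of a gene on the opposite strand, and 0 overlapped one on the same strand. The pairs were Atp5f1 with Wdr77, Atp5j with Gabpa, Ndufa2 with Tmco6, Ndufa4l2 with Shmt2, Ndufb11 with Rbm10 and Ndufs1 with Ino80dos. Shmt2 measured 34.3 CPM in ctrl-2 mice, 33.5 in cKO;S/+ mice and 36.5 in cKO;S/S mice, several times the level of Ndufa4l2, and Ino80dos 5.84, 5.90 and 6.37 CPM.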
